A study of Rattus norvegicus with 53 samples.

Results

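The transcripts described here came from the mitochondrial genome of the rat, and were measured by RNA sequencing of whole eyes. All rows of the deposited expression table that lie on chromosome MT were taken, which gave 37 of 32576 rows, and they were followed over 51 eyes. Each eye came from a different Heterogeneous Stock (HS) rat, an outbred population made from inbred founder strains. The series holds 53 rats, and the 2 eyes that the study removed after comparing their RNA with DNA genotypes are not analysed here. Some of the rats had self-administered nicotine over 12 days. The sources used here do not tell which, nor the sex or age of single rats. The study had no treated and control arms: it used these eyes to relate gene expression to genotype. The labels gave only 1 grouping, 11 eyes whose label was changed after the genotype comparison and 40 eyes that kept theirs. The rat tags also fell into 39 that open with the same string and 12 that open with 6 other strings, and the sources used here do not say what the string marks.

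Mitochondrial DNA is a small circular genome carried in many copies per cell. It encodes core subunits of the respiratory chain complexes and of ATP synthase, together with the ribosomal and transfer RNAs needed to translate them. It is transcribed as long precursors that span many genes and are then cut into single RNAs, and the messenger RNAs receive poly(A) tails. All the other subunits of these complexes are encoded in the nucleus. Photoreceptors, which consume much ATP, are densely packed with mitochondria. The libraries were made from polyA RNA, so RNAs with short or no tails are recovered poorly. Nuclear DNA holds near-identical copies of stretches of mitochondrial DNA, and how reads shared with such copies were assigned was not tested.

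Of the 37 rows, 15 were above 0 in every eye and 22 were at 0 in every eye. A count of 0 over all eyes allows up to 0.0034 CPM (expected read counts scaled to a total of 1000000 per eye), taken as 3 counts over the summed depth. In single eyes this limit ran from 0.0712 CPM in the deepest to 0.329 CPM in the shallowest. Neither the table nor the reference tables used here pair these rows with gene symbols, so the 15 detected rows are called mt1 to mt15 in the order of their transcription starts on MT of Rnor_6.0. These starts were 68 for mt1, 1094 for mt2, 2740 for mt3, 3904 for mt4 and 5323 for mt5. They were 7006 for mt6, 7758 for mt7, 7962 for mt8, 8600 for mt9 and 9451 for mt10. They were 9870 for mt11, 10167 for mt12, 11736 for mt13, 14061 for mt14 and 14136 for mt15. The sources used here give no row ends, strands or gene lengths, so levels of different rows below are levels of fragments and are not corrected for length.

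The eyes held between 9109084 and 42146827 expected counts, with a median of 16193478, and 3 eyes had at least 34999539 while no other exceeded 23740267. The mitochondrial rows together received between 63833 and 2071063 of these counts per eye. The lowest value of any detected row in any eye was 41 counts, for mt7, so counting error was small beside the spread between eyes. The 2 eyes with the lowest mitochondrial share also had the lowest median correlation with other eyes, the second of them only narrowly. Over the 13844 rows with a median of at least 1 CPM it was 0.888 and 0.905 in these 2 eyes, against 0.910 to 0.964 for the other 49. The number of rows at 1 CPM or more was 14064 and 13471 in them, against 13601 to 14092 in the others. Results that rest on these 2 eyes or on the 3 deepest eyes are given with and without them. The labelled tissue could hardly be checked, because markers of rods, lens, pigment epithelium and muscle could not be matched to rows by name. Of the markers that could, Glul, the glutamine synthetase of retinal Müller glia, had a median of 2895 CPM. The stromal genes Lum and Omd had medians of 2.82 and 0 CPM, Hbb of red cells 16.8 CPM and Cd68 of macrophages 2.24 CPM.

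The mitochondrial genome supplied 3.29% ± 1.82 (SD, n = 51) of all expected counts. The lowest eye had 0.418% (95% Wilson interval 0.415 to 0.421%), the median eye 3.15%, and the highest 8.91% (8.89 to 8.92%), a 21.3-fold range. The 2 eyes next to the lowest had 0.440% (0.437 to 0.443%) and 0.801% (0.797 to 0.806%), and the eye next to the highest had 6.85% (6.83 to 6.86%). These intervals cover counting error only, and none of the 5 overlapped another. The share was below 1% in 4 eyes, between 1 and 5% in 36 and above 5% in 11, with the middle part of the eyes between 1.89 and 4.37% (lower and upper quartiles). Its coefficient of variation was 55.4%. A whole eye mixes tissues rich and poor in mitochondria, and in such bulk RNA fewer cells of a type and less RNA per cell cannot be told apart.

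**Figure D1:**
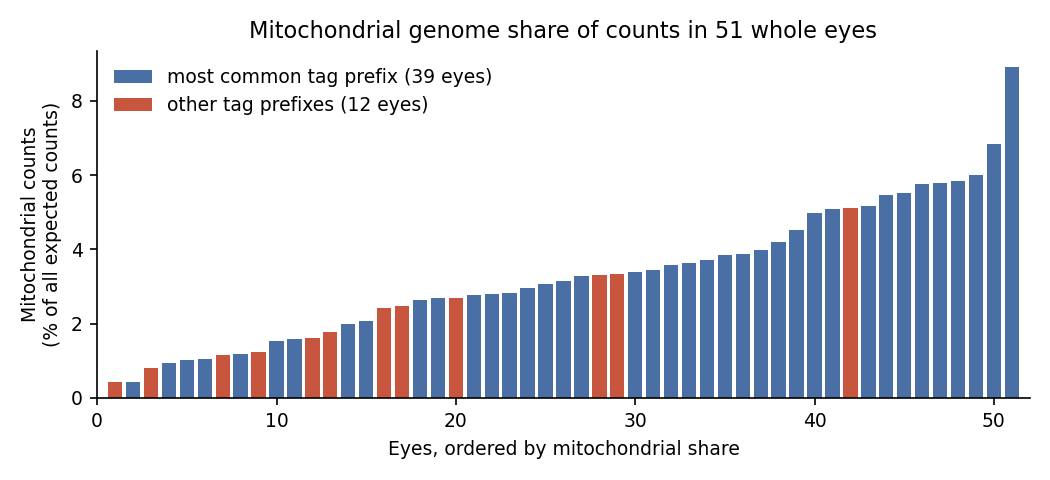
Share of mitochondrial counts in each of 51 eyes, in percent of all expected counts, with eyes ordered by share on the horizontal axis and bars coloured by the opening string of the rat tag. The 2 lowest eyes are at 0.418 and 0.440%, and the 2 highest at 6.85 and 8.91%.

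The level of single rows spanned more than the share itself did for most of them. The most abundant row was mt5 (ENSRNOG00000034234), with 499 CPM in the lowest eye, a median of 8887 and 25104 in the highest, and its median was the 7th highest of all rows in the table. Next came mt9, with 448, 4218 and 10575 CPM, and mt15, with 315, 4060 and 10291 CPM. The row mt6 had 878 CPM in its lowest eye, a median of 3418 and a highest value of 8980, which made it the steadiest of the 15, with a 10.2-fold range. These 4 rows together held 66.4% of mitochondrial counts on average, from 58.9 to 78.7% in single eyes, and the 8 rows of highest mean part held 90.5%.

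Below them mt8 ran from 118 to 7481 CPM with a median of 2615, and mt12 from 91.9 to 6734 CPM with a median of 2006. The values of mt13 were 353, 1762 and 5252 CPM as lowest, median and highest, and those of mt3 were 74.3, 1651 and 4935 CPM. The row mt4 ran from 65.4 to 4750 CPM with a median of 1122. The 2 rows nearest to the start of the sequence were alike in level: mt1 had a median of 657 CPM between 55.4 and 1254, and mt2 a median of 604 CPM between 42.2 and 1597. The remaining 4 rows were low. They were mt10 (ENSRNOG00000033615), with 11.6, 286 and 807 CPM, mt14 with 12.9, 279 and 828 CPM, mt11 with 4.86, 112 and 419 CPM, and mt7 with 2.68, 37.8 and 91.5 CPM.

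The order of these medians did not hold in every eye. The row mt5 exceeded mt9 in 41 of 51 eyes, mt9 exceeded mt15 in 36, and mt15 exceeded mt6 in 36. The mean log2 difference between mt9 and mt15 was 0.13 with an SD over eyes of 0.36, less than the spread between single eyes. The mean difference was 0.10 with an SD of 0.77 for mt15 and mt6 and 0.10 with an SD of 0.59 for mt10 and mt14, and none of these was tested. The row mt12 exceeded mt13 in 25 eyes and was below it in the other eyes, and mt1 exceeded mt2 in 27. At the lower end the order was firm, as mt14 exceeded mt11 in 51 of 51 eyes and mt11 exceeded mt7 in 51 of 51.

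**Figure D2:**
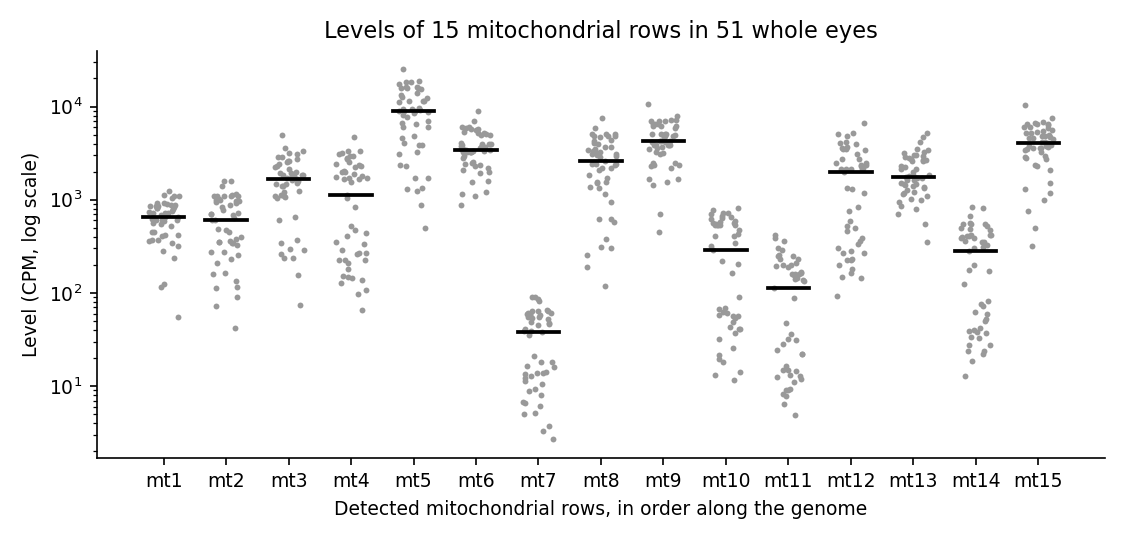
Level of the 15 detected mitochondrial rows in 51 eyes, in CPM on a log axis, with rows in order along the genome, a point for each eye (spread sideways for legibility) and a black bar at the median. The medians run from 37.8 CPM for mt7 to 8887 CPM for mt5, and the points of mt10, mt11 and mt14 fall into a higher and a lower cloud.

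Spread between eyes was wide for all the rows. The SD of log2(CPM + 1) was lowest for mt6, at 0.72, and for mt13, at 0.79, and highest for mt11, at 1.94, and mt10, at 1.97. From lowest to highest eye mt11 changed by 86.3-fold. Each row was set beside the 200 nuclear rows nearest to it in median level, and between 88.5% of them, for mt6, and 100%, for mt7, mt10, mt11 and mt14, had a lower SD. The first 5 principal components of the whole table held 56.0 to 83.3% of the variance of the mitochondrial rows (median 75.7%), against a median of 37.1% over all rows above 0 in any eye. With 20 components, the number the study used as covariates, these values were 82.0 to 92.3% (median 87.9%) against 70.8%.

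Part of this spread lay in the make-up of the mitochondrial RNA and not in its total. Each row was expressed as a percentage of the mitochondrial counts of its eye, which removes the total. The largest mean part was that of mt5, at 25.3% ± 6.03 (SD, n = 51), followed by mt9 at 14.4% ± 3.55, mt6 at 13.4% ± 7.51 and mt15 at 13.3% ± 3.51. The smallest was mt7, at 0.101% ± 0.0521. The part of mt9 varied 2.47-fold over the eyes and that of mt5 3.02-fold, while the part of mt10 varied 23.4-fold.

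For several rows the parts formed 2 separate sets of eyes. The part of mt10 ran from 0.0948 to 0.376% in 21 eyes and from 0.687 to 2.22% in the other 30. No eye lay in the 1.83-fold gap between them. Among gaps with at least 6 eyes on each side the next widest was 1.20-fold. Nearer the lower end a wider gap than that lay between 0.101 and 0.137%. The part of mt4 split the eyes in the same way, with 0.846 to 1.85% in 21 eyes and 3.05 to 5.83% in 30, and all 51 eyes fell on the same side for both rows. The widest gap of mt12 lay between 2.63 and 4.15%, that of mt14 between 0.391 and 0.611%, and that of mt11 between 0.207 and 0.322%. These put 50, 50 and 49 of the 51 eyes on the side where mt10 put them. Between the 30 and the 21 eyes the parts of mt4, mt10, mt11 and mt12 did not overlap. For mt10 this follows from the cut that made the sets. How many nuclear rows would separate the same eyes was not counted. The parts of the other 11 mitochondrial rows overlapped, although those of mt14 met only between 0.611 and 0.619%. In the 30 eyes mt9 made up 8.89 to 14.8% of mitochondrial counts and in the 21 eyes 11.4 to 21.9%. Because the sets were defined from these values, no test was made between them.

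**Figure D3:**
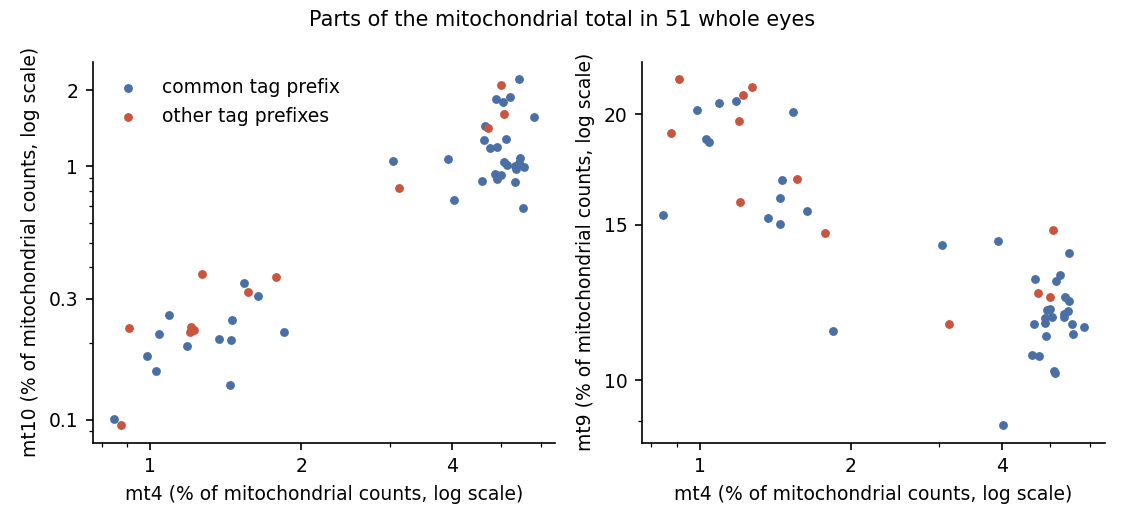
Percentage of mitochondrial counts taken by mt10 (left) and by mt9 (right) against that taken by mt4, both axes on log scales, with a point for each of 51 eyes coloured by the opening string of the rat tag. In the left panel 21 eyes lie at or below 1.85% for mt4 and 0.376% for mt10 and 30 eyes at or above 3.05% and 0.687%, and in the right panel the mt9 values of the same eyes overlap.

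The 2 sets did not coincide with any label. Of the 39 eyes with the common tag string 26 were in the upper set and 13 in the lower, and of the other 12 eyes 4 were in the upper set and 8 in the lower. The relabelled eyes divided into 6 and 5. All 3 of the deepest eyes were in the upper set, and the 2 eyes of lowest mitochondrial share were divided between the sets. The mitochondrial share ran from 0.440 to 8.91% in the upper set, with a median of 3.94%, and from 0.418 to 3.43% in the lower, with a median of 1.78%, so that every eye above 3.43% was in the upper set. The CPM of mt10 itself also overlapped, with 56.4 to 807 CPM in the upper set and 11.6 to 90.6 CPM in the lower. Over all eyes the mean log2 part of mt10 was 0.56 lower with the other tag strings than with the common one (two-sided permutation test, p = 0.192, adjusted p = 0.481), and 0.33 lower in relabelled eyes (p = 0.454, adjusted p = 0.568). What else distinguished the sets was not tested.

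The 2 eyes of lowest share differed from each other in make-up. In the eye with 0.418% mt6 took 37.2% of mitochondrial counts (95% Wilson interval 36.8 to 37.6%), the highest part of that row in any eye, and mt5 took 11.9% (11.7 to 12.2%), its lowest. In the eye with 0.440% mt6 took 19.97% (19.7 to 20.2%) and mt5 19.8% (19.6 to 20.1%). The part of mt10 was 0.318% (0.277 to 0.365%) in the first and 1.28% (1.21 to 1.36%) in the second. Set against the median eye, the CPM of mt6 in the first eye was at 45.5% while that of mt3 was at 4.50%. In the second eye the rows lay between 8.43% of the median eye, for mt1, and 36.5%, for mt7.

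The levels of the rows moved together across eyes. On log2(CPM + 1), Pearson's r was positive for all 105 pairs of the 15 rows, with a median of 0.81, and the median of Spearman's rho was 0.82. All 105 pairs passed the permutation test after Benjamini-Hochberg adjustment over the 105, with p at most 6e-05 for r and 0.00022 for rho, and 99 of them had p = 1e-05 for r, the smallest that the permutations can give. With the 2 eyes farthest from the median of the first row of each pair left out, r lay between 0.52 and 0.99. For comparison, the median r over all pairs of the 13844 rows with a median of at least 1 CPM was 0.03, and 6.63% of those pairs exceeded 0.5, which all 105 mitochondrial pairs did. The rows of an eye share 1 library and 1 scaling, and the pooled values span both sets of eyes. The median r was 0.80 within the 39 eyes of the common tag string and 0.86 within the other 12. Rows next to each other among the 15 had a median r of 0.82 over 14 neighbouring pairs and 0.81 over the other 91.

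Within the sets the picture was less uniform. In the 30 eyes of the upper set r ran from 0.59, for mt10 and mt13, to 0.99, for mt8 and mt9, with a median of 0.87. In the 21 eyes of the lower set it ran from 0.08, for mt6 and mt12, to 0.97, for mt5 and mt8, with a median of 0.75. Without the eye of lowest share in each set the medians were 0.79 and 0.70, and the lowest r 0.21 and -0.05. By the same permutation test 105 pairs passed in the upper set and 91 in the lower. The sets were cut from these same mitochondrial values, so the counts are description only. No count over all rows within the sets is given beside them. The row mt6 stood out among the 21 eyes, since the median of its r with the other 14 rows was 0.26 there and 0.89 in the 30 eyes, or 0.13 and 0.87 without the eye of lowest share in each. Its closest partner in the 21 eyes was mt1, at 0.80, and mt1 was also the row with the next lowest median, at 0.52. The difference in r between the sets was not tested.

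**Figure D4:**
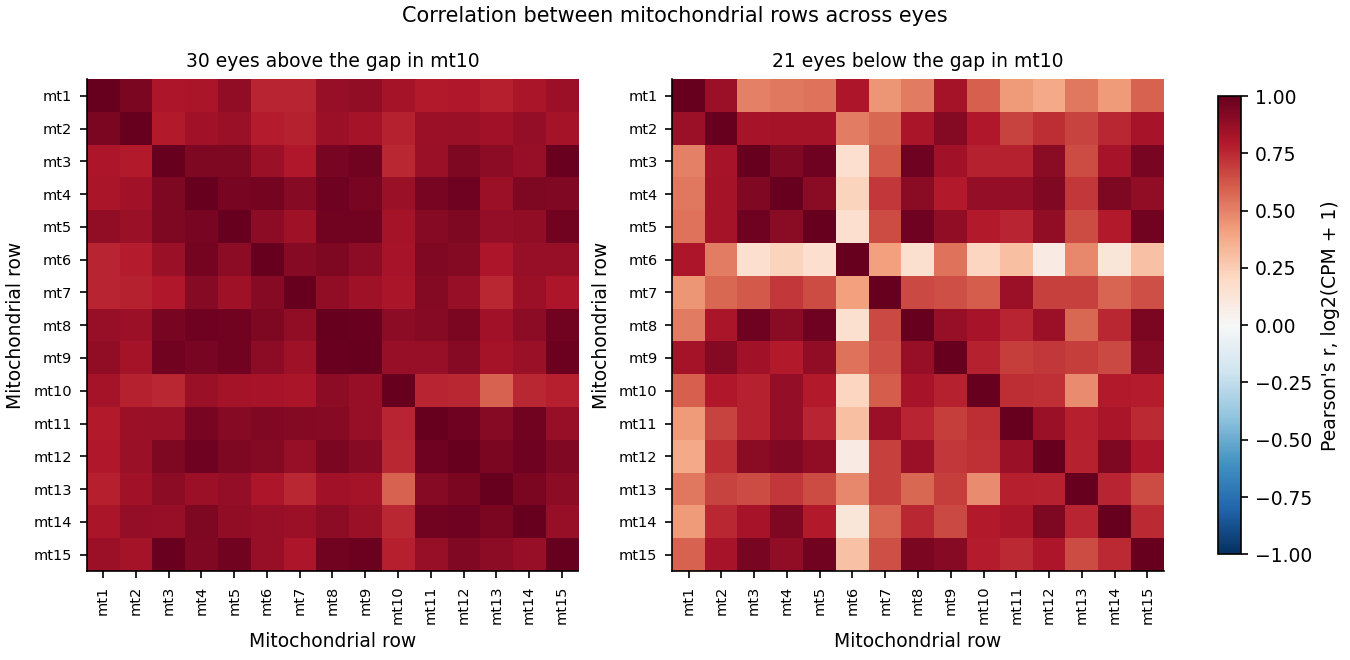
Pearson's r between the 15 mitochondrial rows on log2(CPM + 1), within the 30 eyes above (left) and the 21 eyes below (right) the gap in the part of mt10, on a colour scale from -1 (blue) to 1 (red). The left panel is dark red throughout, with values from 0.59 to 0.99, and in the right panel the line and column of mt6 are pale, with a median of 0.26.

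The rows did not follow the mitochondrial total at the same rate. Each row was regressed on the sum of the other mitochondrial rows, both as log2 of the ratio to nuclear counts, so that a slope of 1 means a change in proportion. Over all eyes mt6 had the lowest slope, 0.48 ± 0.07 (SE), followed by mt1 at 0.68 ± 0.08, mt13 at 0.69 ± 0.05 and mt9 at 0.79 ± 0.05. The row mt15 had 0.91 ± 0.06. The highest slopes were those of mt11, at 1.75 ± 0.14, mt10, at 1.67 ± 0.16, and mt4 and mt12, both at 1.62 ± 0.12. Within the upper and the lower set, which were cut on the part of mt10 and so hold that ratio within limits, the slopes were 1.22 and 0.79 for mt11, 0.87 and 0.89 for mt10, 1.10 and 0.89 for mt4, and 1.08 and 0.98 for mt12. Without the eye of lowest share in the upper set that of mt11 was 1.39 and that of mt4 1.28. The slope of mt6 was 0.86 in the upper set and 0.21 in the lower, and without the 2 eyes of lowest share these became 1.19 and 0.15. In the lower set mt3 and mt8 rose faster than the rest, with slopes of 1.77 and 1.71, against 0.97 and 1.06 in the upper set. That of mt15 was 1.42 in the lower set and 0.94 in the upper, and over all eyes 0.79 without the 2 eyes of lowest share.

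The parts were also turned into centred log-ratios, which remove the total. Centring makes correlations negative by itself: 15 rows of equal variance would have a mean r of -0.07, and these rows differ in variance. The median r was -0.11 in the upper set and -0.14 in the lower, with 62 and 65 of the 105 pairs below 0. Some pairs still rose and fell together: mt3 and mt15 had r = 0.86 in the upper set, and mt3 and mt8 had r = 0.89 in the lower. Others were opposed, with -0.77 for mt10 and mt13 in the upper set and -0.84 for mt3 and mt6 in the lower. Over all eyes the first component of the 15 rows held 87.9% of their variance and the second 6.65%, and for the centred log-ratios these were 71.7 and 13.4%.

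The first 20 expression components of the whole table were then regressed out. The median r of the mitochondrial pairs was then 0.47, with a range from -0.15 to 0.96, and 4 pairs were below 0. By permutation 76 of the 105 pairs passed. Those p-values treat the eyes as free values and are too small, and by a t distribution on the 29 degrees of freedom left 67 pairs passed. Pairs of all rows were not examined after this step. Whether the remaining correlation is particular to the mitochondrial rows therefore cannot be told.

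The share was then set against the labels and the depth, in a family of 5 tests that includes those of the part of mt10. The log2 ratio of mitochondrial to nuclear counts was -4.93 ± 0.80 (SD, n = 11) in relabelled eyes and -5.21 ± 1.06 (n = 40) in the others, a difference of 0.28 (two-sided permutation test, p = 0.424, adjusted p = 0.568). It was -5.76 ± 1.02 (n = 12) with the other tag strings and -4.96 ± 0.94 (n = 39) with the common one. Among the 12 eyes the share ran from 0.418 to 5.11% with a median of 2.10%, and among the 39 from 0.440 to 8.91% with a median of 3.43%, so the ranges overlapped, but 11 of the 12 lay below the median of the 39. The difference of -0.80, or 0.576-fold, had p = 0.0148 and did not pass after adjustment over the 5 tests (adjusted p = 0.0742). Both tests of the part of mt10 were added after seeing the data, and over the other 3 tests the adjusted p was 0.0444, which passes. Without the 2 eyes of lowest share it was -0.68, with p = 0.0203 before adjustment.

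Depth and the mitochondrial ratio had r = -0.07 (permutation p = 0.651) and rho = -0.24 (p = 0.0917) over the 51 eyes, with an adjusted p of 0.651 for r. With the 2 eyes of most extreme depth left out r was -0.22, and it was -0.10 within the common tag string and 0.20 within the others. Leaving out the 3 deepest eyes changed the outcome, to r = -0.31 with p = 0.0319 before adjustment, so the pooled value depended on those 3 eyes.

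Single rows were compared in the same way with limma over 13844 rows. None of the 15 mitochondrial rows passed an adjusted p of 0.05 between relabelled and other eyes, where 0% of all rows passed (0 of 13844). Before adjustment none of the 15 was under 0.05, while 795 of the 13844 rows were. None passed between tag strings either, where 0.253% of all rows passed (0.0289% higher and 0.224% lower with the other tag strings). Before adjustment 12 of the 15 were under 0.05 there, as were 2298 of all 13844 rows. The 15 rows are correlated with each other, so they do not count as 15 separate results. All 15 log2 differences were negative, meaning lower with the other tag strings, from -0.32 for mt1 to -1.65 for mt12 (SE 0.52, adjusted p = 0.0851). The smallest adjusted p was 0.0805, for mt3, with a log2 difference of -1.25. The rows mt6 and mt9 differed by -0.33 and -0.47. With 5 expression components as covariates 2 of the 15 had an unadjusted p under 0.05, as did 1500 of all 13844 rows.

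The nuclear rows were last set against the log2 ratio of mitochondrial to nuclear counts, after scaling them to the nuclear total, so that mitochondrial counts could not lower them. Slopes and r below are on that scale, and levels are CPM of all counts. Of 13880 nuclear rows 38.4% changed with the ratio at an adjusted p under 0.05 (limma), 21.7% rising and 16.6% falling. Without the 2 eyes of lowest share, which lie farthest from the median ratio, 3221 rows passed in place of 5324, and the falling rows went from 2307 to 773. Within the common tag string 990 fell. Nuclear rows could be named only where their start matched a gene in the study's list of genes with a local expression QTL, which covered 778 rows. Of the 704 of these that were tested 28.98% passed, 102 rising and 102 falling, which is below the share over all nuclear rows.

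Only 4 of the listed nuclear subunits of the respiratory chain and ATP synthase could be named, and 1 of them passed, which with 38.4% of all nuclear rows passing is no more than the background. This was Uqcrc2, a core subunit of complex III, with 47.3 CPM in the lowest eye, a median of 124 and 162 in the highest. It rose by 0.24 ± 0.04 (SE) log2 units per doubling of the mitochondrial ratio (limma, adjusted p = 2.55e-07), with r = 0.73 in the upper set of eyes and 0.43 in the lower. Without the eye of lowest share in each set these were 0.28 and 0.37, and the pooled r went from 0.68 to 0.57 without both eyes. The complex I subunits Ndufb2 (median 41.7 CPM) and Ndufb8 (median 122 CPM) had slopes of 0.02 and -0.004 with adjusted p of 0.835 and 0.961 (limma). Atp5mc2, a subunit of the ATP synthase ring, had a slope of -0.03 (adjusted p = 0.571, limma). The signs of these 3 slopes changed under other settings.

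No other listed gene that could be named passed. The mitochondrial ribosomal proteins Mrpl4, Mrpl12, Mrpl44 and Mrps35 had slopes of -0.07, 0.04, 0.01 and 0.04, and Vdac1, the outer membrane channel often read as a measure of mitochondrial content, had 0.01 ± 0.04 (SE) at a median of 251 CPM. The glycolytic enzymes Eno1 and Ldhb had -0.05 and -0.0006. Markers of other cell types were likewise not called: Glul of Müller glia had 0.0002 ± 0.03 (SE) and Lum of the corneal stroma 0.12 ± 0.12. Hbb of red cells had 0.01 ± 0.12 and Cd68 of macrophages -0.16 ± 0.13. Lum and Cd68 were low, with medians of 2.82 and 2.24 CPM. The r of Cd68 was 0.07 in the upper set and -0.48 in the lower. The stromal gene Omd was at 0 in most eyes and was not tested. So none of the markers that could be named and tested passed, which for Lum, Hbb and Cd68, with their wide SEs, does not show that they stayed level.

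The rows with the highest r could mostly not be named, and the highest r over all nuclear rows was 0.93. Among named rows the highest was that of Gpbp1, a factor that binds GC-rich promoters, with 9.03 CPM in the lowest eye, a median of 110 and 179 in the highest. Its slope over all eyes was 1.06 ± 0.07 (SE, adjusted p = 5.74e-19, limma), and r was 0.84 in the upper set and 0.88 in the lower, or 0.58 and 0.82 without the eye of lowest share in each. The 2 eyes of lowest mitochondrial share had 9.03 and 10.5 CPM of Gpbp1. Its widest gap, between 74.1 and 109.8 CPM, was only slightly wider than the next one, 1.48-fold against 1.46-fold. All 26 eyes above it were in the upper set, and the 25 below it were the 21 eyes of the lower set and 4 of the upper. Gpbp1 was picked by its r with the mitochondrial ratio, and the median share was 3.94% in the upper set and 1.78% in the lower. Its match with the sets is therefore not independent of that choice. How many other nuclear rows divide the eyes alike was not counted. The 26 eyes above the gap stayed between 109.8 and 179 CPM of Gpbp1 while their share ran from 2.79 to 8.91%, and the highest value was in an eye with a share of 3.29%.

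**Figure D5:**
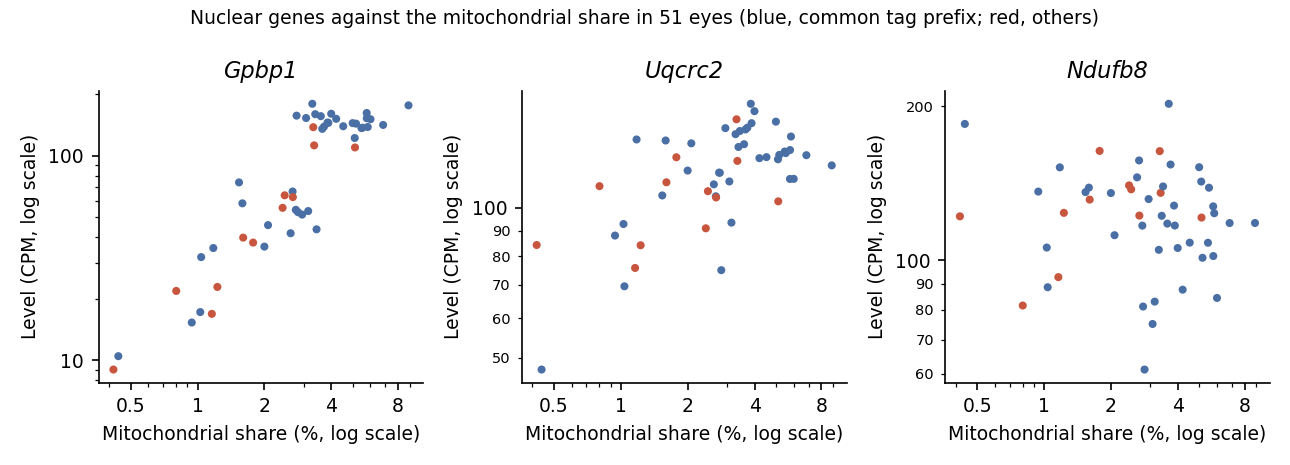
Level of 3 nuclear genes in CPM of all counts (log axis) against the mitochondrial share in percent (log axis), with a point for each of 51 eyes, blue for the common tag string and red for the others. Gpbp1 lies between 9.03 and 74.1 CPM in 25 eyes, whose shares run from 0.418 to 3.43%. It lies between 109.8 and 179 CPM in the other 26, whose shares run from 2.79 to 8.91%, so the shares overlap. Uqcrc2 lies between 47.3 and 162 CPM, and Ndufb8 between 61.2 and 202 CPM.

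Next in order were Il33, a cytokine of barrier and glial cells (r = 0.82 in the upper set and 0.85 in the lower, or 0.62 and 0.79 without the eye of lowest share in each, slope 0.47), and Ppp1cb, a catalytic subunit of protein phosphatase 1 (0.82 and 0.75, or 0.62 and 0.78, slope 0.76). Oxr1, which protects against oxidative damage, had 0.81 and 0.68, or 0.58 and 0.62, with a slope of 0.42. They were followed by Tmtc3, an O-mannosyltransferase of the endoplasmic reticulum, AABR07029605.1, Ssr3 of the translocon-associated complex, the helicase Dhx36, the nucleolar protein Esf1 and Guf1. Guf1, a GTPase of the mitochondrial ribosome, had a slope of 0.40 ± 0.04 (SE, adjusted p = 5.08e-12, limma). The slopes of these 10 genes lay between 0.40 and 1.06. The lowest r belonged to Man2b2, a lysosomal mannosidase, with a slope of -0.17 ± 0.03 (SE, adjusted p = 3.97e-05, limma). Abca3, Alyref, Slc5a6 and Zyx, which act in lipid transport, mRNA export, vitamin uptake and cell adhesion, had slopes from -0.20 to -0.14. Over all nuclear rows 467 had a pooled r above 0.8 and none was below -0.8.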

How the data were processed

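RNA of 53 eyes (polyA, paired-end reads) was aligned to Rnor_6.0 with STAR and quantified with RSEM by the authors, who matched samples to genotypes with GATK, per the labels. The sources used here name no annotation and no tool versions. The authors deposited log2 of the expected count plus 1, a unit taken from the numbers themselves: back on the linear scale, 26 of 26 mitochondrial values from 1 to 200 were whole to within 0.01. Each eye is 1 rat.

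Values were turned back into counts and scaled to 1000000 per eye, and log2(CPM + 1) was used. Rows with a median of at least 1 CPM were fitted with limma 3.58.1 (R 4.3.3, trended prior), with Benjamini-Hochberg adjustment over all of them. Fold changes of low rows are understated on this scale. No count model was used. Correlations and differences of single values had 100000 permutations (Python 3.11.15, numpy 2.4.6, scipy 1.17.1, pandas 2.3.3, matplotlib 3.10.9). On simulated data 95% of rows changed 1.5-fold were recovered for the relabelled comparison and 93% for the tag strings, over 13844 rows. The simulated rows were independent and shared a fixed dispersion, with less spread than the mitochondrial rows. Between tag strings the SE of the log2 difference ran from 0.23 for mt6 to 0.60 for mt10. The recovery therefore does not hold for the mitochondrial rows, whose power was not simulated.

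Nuclear rows were named by start only, and 778 of 778 genes in the study's list matched, so 16 of 247 genes in 21 lists could be named. Named genes were the 10 highest and 5 lowest r with the mitochondrial ratio and up to 4 members of each list by smallest p. The members, lists and comparisons were chosen with earlier results of these data known. Alternatives were another scaling, pseudocount 0.1, no filter, covariates and left-out eyes. Sets of eyes, leaving out the 2 lowest (within sets too), leaving out the 3 deepest (except for depth), nuclear scaling in the label comparisons of rows, both tests of the part of mt10 and the adjustment without them were chosen after seeing the data.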

Additional observations from a re-analysis of the deposited data

How the results depend on the processing

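The share was 2.39% without mt5, and its comparisons between labels kept their direction and their side of p = 0.05 before adjustment under 7 alternatives. The correlation with depth became -0.31 without the 3 deepest eyes. The count of correlated pairs stayed within 1.5 times under 10 alternatives. These include the use of all detected rows, which were the same 15 and so could not change the count. With 20 components removed it was 76 of 105 by permutation and 67 by t on 29 degrees of freedom. Without the 2 eyes of lowest share, farthest from the median ratio, 3221 nuclear rows were called and 773 of them fell, and 990 fell within the common tag string. The cause was not tested. Over all rows the tag string comparison gave 35 calls (4 higher, 31 lower) against 6 (3 and 3) with median-of-ratios scaling or without the 3 deepest eyes, 11 without a filter, 54 with 5 components, 83 with nuclear scaling and 96 without the 2 eyes of lowest share, and 0 of the 15 mitochondrial rows in each, by limma.

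Reversed log2 differences, none past the threshold, were these. Between relabelled and other eyes they were -0.0184 for mt1 and 0.21 for mt10 with 5 components, -0.14 for mt1, -0.0729 for mt2, -0.0357 for mt4 and -0.0234 for mt6 without the 2 eyes of lowest share, and 0.0576 for mt10 without the 3 deepest. Between tag strings they were 0.27 for mt1, 0.0830 for mt6, 0.0205 for mt9 and 0.14 for mt10 with 5 components. Reversed slopes were -0.0047 for Ndufb2, -0.0022 for Mrpl44 and -0.0365 for Hbb within the common tag string, 0.0385 for Ndufb8, 0.0011 for Atp5mc2 and 0.0079 for Ldhb without the 2 farthest eyes, 0.0022 for Ndufb8 and 0.0031 for Ldhb with depth as covariate, and -0.0026 for Glul with median-of-ratios scaling. In each the cause was not tested. No paired analysis was possible because the replicate numbers follow accession order and pair no eyes. At this depth a count of 0 bounds the 22 rows at 0.0034 CPM, and why they were at 0 was not tested.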
